A study of Mus musculus with 6 samples.

Results

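The genes described here are 10 factors by which myeloid cells can act on a healing infarct: Tgfb1, Vegfa, Igf1, Pdgfb, Osm, Fn1, Spp1, Thbs1, Lgals3 and Gpnmb. They were taken by symbol from a table of 55335 mouse genes, and all 10 were found and passed the filter on low counts. RNA was sequenced from CD11b+ cells that flow cytometry had sorted from the spleen. The MI+RDN group had a myocardial infarction and renal denervation, the removal of the nerves of the kidney, and the MI group had the infarction alone. All mice were wild type and all had an infarct, so the design holds no uninjured animals. Each group had 3 biological replicates. The sources used here do not state strain, age, the time since the infarct or any pooling of animals. The p-values weigh the difference between the groups against the spread of libraries within them, and they cover these 6 libraries only.

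After an infarct, neutrophils, monocytes and macrophages clear dead muscle and then release factors that shape the scar. TGF-beta 1 turns fibroblasts into matrix-making cells, VEGF-A and PDGF-B build and stabilise vessels, IGF-1 sustains muscle, and oncostatin M (Osm) signals through gp130, the receptor chain shared by the IL-6 family. Fibronectin (Fn1), osteopontin (Spp1) and thrombospondin-1 (Thbs1) are proteins of the provisional matrix that cells grip through integrins. Galectin-3 (Lgals3) is a sugar-binding protein linked to fibrosis. Gpnmb is a membrane glycoprotein whose outer part is shed. Spleen supplies many of the monocytes that enter an infarct. The comparison asks what RNA the CD11b+ cells of the spleen carry as a whole, neutrophils included, when the renal nerves are cut. RNA abundance does not measure secretion.

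Library totals ranged from 24634555 to 28013900 counts in MI+RDN and from 21663440 to 24677865 in MI. Itgam, which encodes CD11b, stood at 1598 ± 95.2 CPM in MI+RDN and 1133 ± 150 CPM in MI (SD, n = 3 each), so the sort marker was abundant in both groups. CPM are counts scaled to a common library size, after TMM factors. Across all 14849 genes tested with edgeR's quasi-likelihood test, 1.01% passed a Benjamini-Hochberg adjusted p of 0.05, with 0.296% higher and 0.714% lower in MI+RDN. These were 44 genes higher and 106 lower, and with no scaling factors 62 were higher and 413 lower. Dropping the factors also moved the median log2 fold change of all genes to -0.13. The 12 neutrophil markers summed to between 28441 and 52034 CPM in MI+RDN and between 15704 and 24631 CPM in MI. MI+RDN replicate 2 held the highest of these sums. The 6 markers of Ly6C-high monocytes summed to 4460 to 7254 CPM in MI+RDN and 5228 to 5976 CPM in MI. Of these 6, 1 was higher by the test, and 3 were positive and 3 negative. The 7 markers of Ly6C-low monocytes summed to 1802 to 1958 CPM in MI+RDN and 1841 to 1949 CPM in MI. Of these 7, Pglyrp1 alone was higher by the test (log2 fold change 0.96, MI+RDN over MI, edgeR Benjamini-Hochberg adjusted p = 0.0462). In sign, 4 were positive and 3 negative. The negative ones were Cx3cr1 (-0.65), Ace (-0.36) and Treml4 (-0.23), none past the threshold. The other positive ones were Cd300e (0.25), Nr4a1 (0.029) and Spn (0.026). All 7 are named after their values were seen. In bulk RNA of a sorted population, fewer cells of a type and less RNA per cell cannot be told apart.

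Of the 10 factors, Pdgfb alone passed the test and was lower in MI+RDN, beside 0.714% of all genes tested. No factor passed in the other direction. The fitted log2 fold changes, MI+RDN over MI, were positive for 5 factors and negative for 5, with a median of -0.0019 beside 0.0080 for all genes tested. The median size of the change regardless of sign was 0.41 on the log2 scale, beside 0.22 for all genes tested. The groups did not overlap for 3 factors, Pdgfb and Tgfb1 with lower values in MI+RDN and Lgals3 with higher values, where 26.2% of all genes tested did not overlap, 12.4% with higher and 13.7% with lower values in MI+RDN. At an unadjusted p under 0.05 there were 4 factors, beside 19.9% of all genes tested.

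The 2 factors other than Pdgfb whose groups did not overlap, neither of them past the threshold, were both found in RefSeq's table of start sites. The bases before their starts are shown as a description. They are read from build GRCm38.p6, on the plus strand, 5′ to 3′, and end at the first base annotated as an exon. Tgfb1 is at chr7:25686752-25687001 and Lgals3 at chr14:47373610-47373812. Capitals mark GC boxes, the letters GGGCGG on either strand, which the factor Sp1 is known to bind.
Tgfb1: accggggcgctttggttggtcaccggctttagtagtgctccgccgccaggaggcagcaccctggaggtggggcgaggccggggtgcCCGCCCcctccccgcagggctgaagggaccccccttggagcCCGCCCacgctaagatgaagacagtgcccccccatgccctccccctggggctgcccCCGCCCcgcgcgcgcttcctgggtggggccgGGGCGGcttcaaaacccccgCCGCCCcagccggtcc
Lgals3: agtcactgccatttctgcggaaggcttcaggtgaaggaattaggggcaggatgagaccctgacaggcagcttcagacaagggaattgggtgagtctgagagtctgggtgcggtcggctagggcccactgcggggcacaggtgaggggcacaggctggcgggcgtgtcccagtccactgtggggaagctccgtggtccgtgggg
The Tgfb1 window of 250 bases held 5 GC boxes and was 75.2% G or C. The Lgals3 window of 250 bases was 66% G or C and held 1 GC box, which lay in the bases annotated as exon and is not printed. Neither window held a TATA box (TATAAA), an AP-1 site (TGANTCA) or an E box (CACGTG). Of 32851 such windows in the table, 32.7% held at least 1 GC box, 12.4% a TATA box, 6.75% an AP-1 site and 6.02% an E box. A match of letters is a description of the window and not evidence of binding, and its part in the RNA values was not tested. The table matched 6 of the 10 factors by symbol, namely Tgfb1, Vegfa, Igf1, Spp1, Lgals3 and Gpnmb.

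Levels were compared between genes as RPKM, CPM per kilobase of annotated exon. Galectin-3 and fibronectin RNA were the most abundant, Lgals3 with a mean of 246 RPKM over the 6 libraries (rank 187 of 14836 genes with a length) and Fn1 with 150.4 RPKM (rank 328). Tgfb1 followed at 62.4 RPKM and Osm at 54.9, and these 2 were not separated, since Tgfb1 was the higher in 4 of 6 libraries. Thbs1 stood at 13.4 RPKM, Spp1 at 6.91 and Vegfa at 5.9996. Thbs1 was above Spp1 in 5 of 6 libraries and Spp1 was above Vegfa in 3 of 6, so neighbours in this stretch overlapped. Pdgfb stood at 2.28 RPKM, below Vegfa in all 6 libraries. Gpnmb (0.758 RPKM) and Igf1 (0.736 RPKM) were the lowest, and each was above the other in 3 libraries. Fn1 alone took 56.3% to 63.4% of the counts of the 10 factors in MI+RDN and 61.1% to 69.1% in MI.

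**Figure D1:**
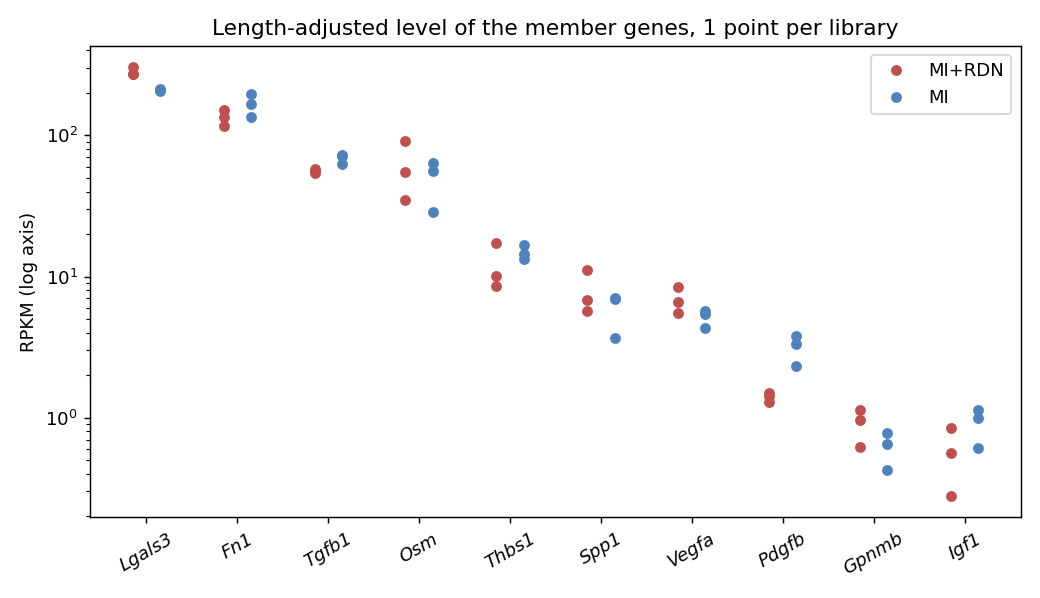
Length-adjusted level (RPKM, log axis) of the 10 factors, 1 point per library, MI+RDN in red left of MI in blue. Lgals3 and Fn1 stood at means of 246 and 150.4 RPKM, and Gpnmb and Igf1 lay below 1.2 RPKM in every library.

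Pdgfb (ENSMUSG00000000489, chromosome 15), the PDGF chain that draws pericytes to new vessels, fell 2.25-fold. It stood at 5.39, 6.21 and 5.89 CPM in MI+RDN replicates 1 to 3, against 9.71, 13.8 and 15.9 CPM in MI replicates 1 to 3. The 3 MI+RDN libraries lay within 1 CPM of each other and below every MI library, whereas the MI libraries were spread. On the log2 scale the difference was -1.17 (SE 0.20, 95% interval -1.64 to -0.70, edgeR Benjamini-Hochberg adjusted p = 0.0495). The call lay at the threshold. It was lost when any 1 of the 6 libraries was left out (adjusted p = 0.0524 to 0.149 by edgeR), while the fold change then stayed between -1.35 and -1.01. It was also lost with DESeq2 size factors, with no filter on low counts and with limma-voom (adjusted p = 0.0505, 0.0910 and 0.0566).

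Among markers of other cells in the sorted samples, the sums for dendritic, B, T, erythroid and endothelial cells were all below those of MI in the MI+RDN libraries. The 10 markers of CD11b+ dendritic cells summed to 1980 to 2185 CPM in MI+RDN and 2828 to 3509 CPM in MI, with 5 of 10 lower by the test and no marker at 0. The dendritic cell sums are dominated by Sirpa (mean 1022 CPM in MI+RDN and 1047 in MI) and H2-Eb1 (495 and 1095). Sirpa thus differed little between the groups, while H2-Eb1 did. Gene by gene, 10 of 10 dendritic cell markers were negative and 7 had groups that did not overlap. Sirpa was named after its values were seen. The 8 B cell markers summed to 289 to 458 CPM in MI+RDN and 559 to 819 CPM in MI, with 8 of 8 negative, 0 past the threshold and none at 0. The 8 T cell markers summed to 26.6 to 48.3 CPM in MI+RDN and 64.8 to 84.0 CPM in MI, with 8 of 8 negative, 1 past the threshold, Cd3d, and none at 0. None of these 3 marker lists had sums that overlapped between the groups. The 7 tested of 8 erythroid markers, mostly globin genes, summed to 171 to 244 CPM in MI+RDN and 386 to 775 CPM in MI, with 6 of 7 negative and 0 past the threshold. The 11 tested of 13 platelet markers summed to 42.5 to 55.9 CPM in MI+RDN and 46.3 to 66.4 CPM in MI, with 0 past the threshold. The 3 tested of 8 endothelial markers summed to 13.8 to 22.05 CPM in MI+RDN and 25.7 to 29.0 CPM in MI. Of these, 3 of 3 were negative and 0 passed the threshold, and Emcn, not tested, was at 0 in every library. The part of these cells in the Pdgfb result was not tested.

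**Figure D2:**
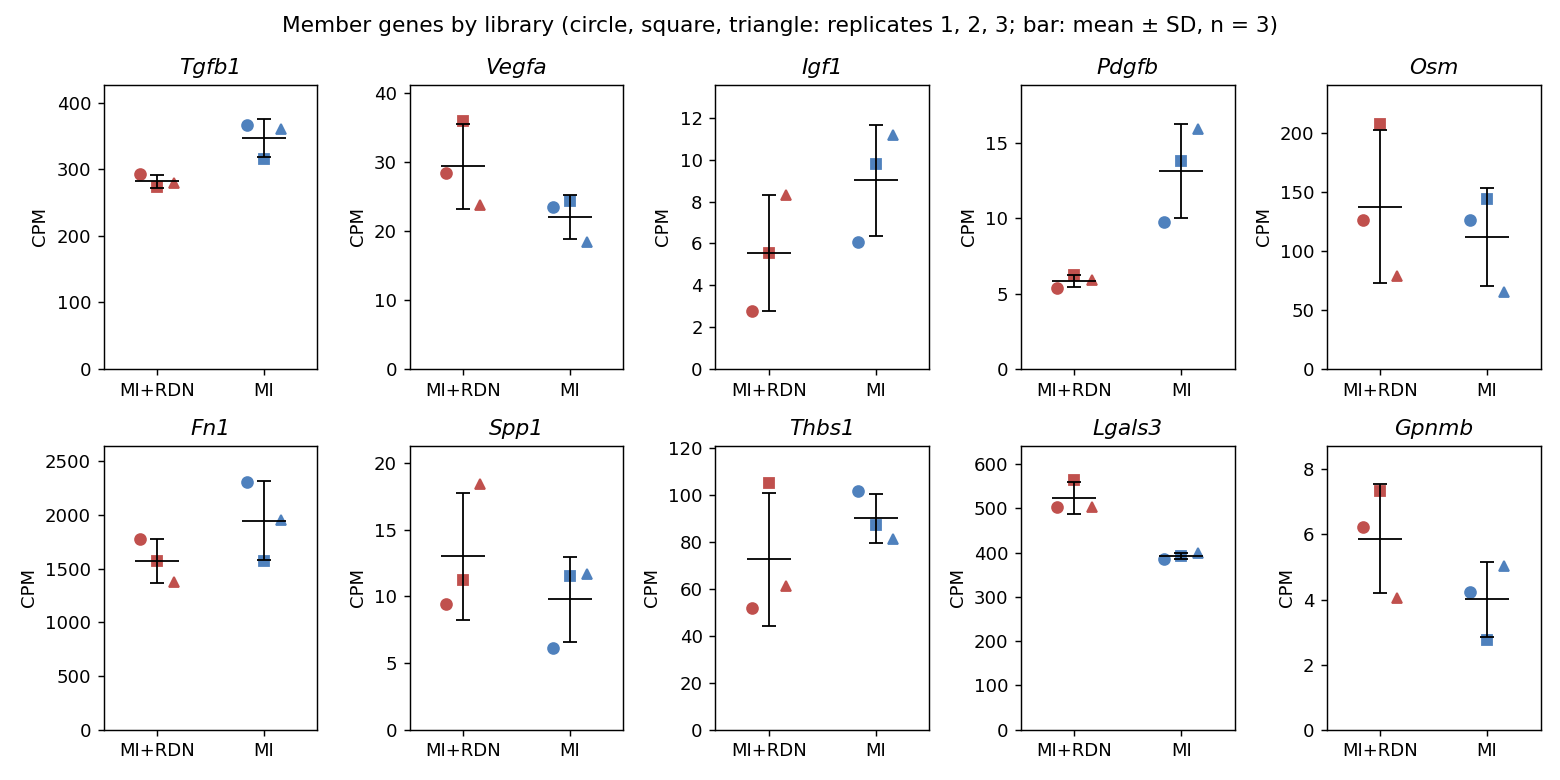
CPM of each factor in MI+RDN (red, left) and MI (blue, right), with circle, square and triangle for replicates 1, 2 and 3 and bars for the mean ± SD (n = 3). The groups do not overlap for Tgfb1, Pdgfb and Lgals3.

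Tgfb1 (ENSMUSG00000002603, chromosome 7), the TGF-beta form of immune cells, stood at 293, 273 and 279.9 CPM in MI+RDN and 368, 315 and 360.5 CPM in MI. Every MI+RDN library was below every MI library, by a small margin. Its log2 fold change was -0.30 (SE 0.098, 95% interval -0.53 to -0.077) which missed the threshold (edgeR, Benjamini-Hochberg adjusted p = 0.149). The companion genes of TGF-beta storage, activation and response were also counted: 0 of 22 tested passed, their median was -0.024 on the log2 scale, and 9 were positive and 13 negative. With no scaling factors, 6 were positive and 16 negative, with a median of -0.16. Itgav, 1 chain of the integrins that release active TGF-beta from its latent form, stood at 46.1 ± 4.46 CPM in MI+RDN and 63.4 ± 1.74 in MI (log2 fold change -0.46, edgeR Benjamini-Hochberg adjusted p = 0.0634). Acvrl1, a type I receptor of the family known chiefly from endothelium, stood at 71.6 ± 32.3 CPM in MI+RDN and 41.0 ± 1.30 in MI, and the 3 MI+RDN libraries were far apart at 65.0, 107 and 43.0 CPM. Tgfb2 and Tgfb3, the other ligands, had at most 12 counts in any library and were not tested. Itgb6 and Itgb8, integrin beta chains of the same list, had at most 3 and 7 counts in any library and were not tested. Tgfb2, Tgfb3, Itgb6 and Itgb8 were named after their values were seen.

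Vegfa (ENSMUSG00000023951, chromosome 17), the main growth factor of endothelium, stood at 28.4, 35.9 and 23.8 CPM in MI+RDN and 23.4, 24.3 and 18.4 CPM in MI. The groups overlapped, because the lowest MI+RDN library lay below the highest MI library. For Vegfa the log2 fold change was 0.42 (SE 0.18, 95% interval 0.0090 to 0.82), short of the threshold over all genes (edgeR Benjamini-Hochberg adjusted p = 0.242). It was 0.23 without MI+RDN replicate 2. Among the other VEGF ligands and receptors, 0 of 6 tested passed and the median log2 fold change was -0.26 (-0.40 with no scaling factors). Flt1, a VEGF receptor also carried by monocytes, stood at 17.1 ± 4.08 CPM in MI+RDN and 22.3 ± 1.94 in MI (log2 fold change -0.38, edgeR Benjamini-Hochberg adjusted p = 0.297), and leaving out MI+RDN replicate 2 gave -0.21. Nrp2, a VEGF co-receptor, stood at 9.49 ± 1.03 CPM in MI+RDN and 11.1 ± 1.97 in MI.

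Igf1 (ENSMUSG00000020053, chromosome 10), a growth factor that resident macrophages make, had the widest span of log2 CPM of the 10 factors, 1.99 from the lowest library to the highest. It stood at 2.77, 5.55 and 8.34 CPM in MI+RDN and 6.05, 9.79 and 11.2 CPM in MI. MI+RDN replicate 1 was the lowest library and MI+RDN replicate 3 lay above MI replicate 1. The log2 fold change of -0.70 (SE 0.39, 95% interval -1.61 to 0.21) missed the threshold (edgeR, Benjamini-Hochberg adjusted p = 0.362), and leaving out MI+RDN replicate 1 gave -0.38, while leaving out MI+RDN replicate 3 gave -1.13. The 13 splenic macrophage markers summed to 1186, 1070 and 1498 CPM in MI+RDN replicates 1 to 3 and 1330, 1454 and 1501 CPM in MI replicates 1 to 3, with 0 of 13 past the threshold and none at 0. The sums are dominated by Slc40a1, Hmox1 and Adgre1, and gene by gene 11 of 13 macrophage markers were negative, 6 had groups that did not overlap, and their median was -0.58 on the log2 scale. The mannose receptor gene Mrc1 was the lowest at -1.39 (edgeR, Benjamini-Hochberg adjusted p = 0.0571), and Slc40a1 the highest at 0.27; these 4 markers are named after their values were seen. The part of these cells in the Igf1 values was not tested. In the rest of the IGF system 6 of 6 tested genes were positive, with a median of 0.43 on the log2 scale, and 0 passed. The same median was 0.20 when MI replicate 3 was dropped and 0.26 when MI+RDN replicate 2 was dropped, and 6 of 7 genes were positive in each of these fits, which tested 1 gene more. Igfbp6, a binding protein that prefers IGF-2, stood at 12.5 ± 2.18 CPM in MI+RDN and 7.84 ± 1.71 in MI (log2 fold change 0.67, edgeR Benjamini-Hochberg adjusted p = 0.140). Irs2, an adaptor below the insulin and IGF receptors, stood at 79.3 ± 4.38 CPM in MI+RDN and 62.2 ± 12.5 in MI.

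**Figure D3:**
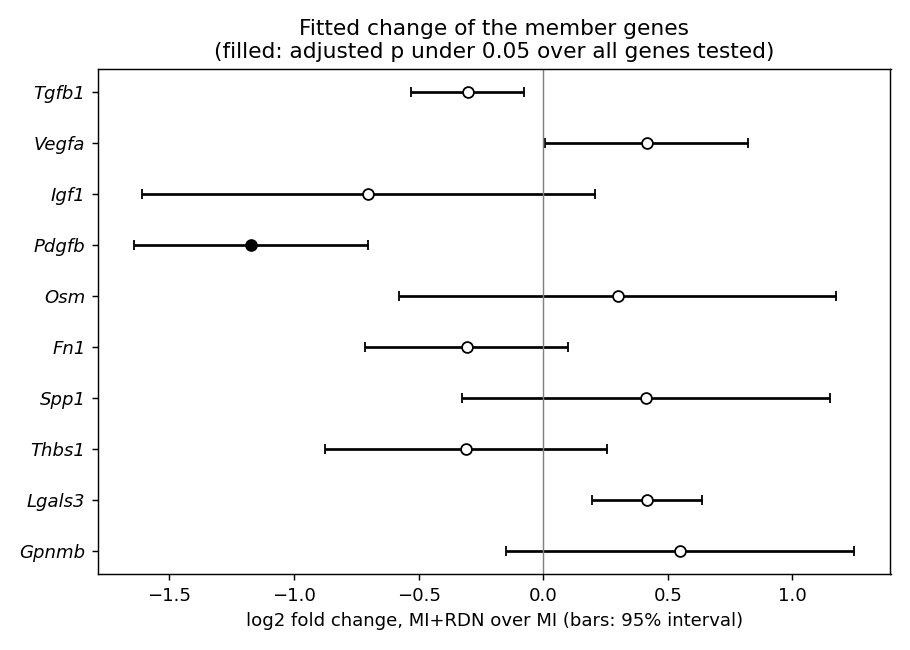
Fitted log2 fold change of each factor, MI+RDN over MI, with its 95% interval; the filled point passed an adjusted p of 0.05 over all genes tested. Pdgfb is filled at -1.17, and the intervals of Tgfb1, Vegfa and Lgals3 also leave out 0 although these genes did not pass after adjustment.

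The remaining PDGF genes were scarce. Pdgfc stood at 0.35 ± 0.19 CPM in MI+RDN and 0.67 ± 0.29 in MI, and Pdgfrb, the receptor of PDGF-B on pericytes and fibroblasts, at 1.89 ± 0.36 CPM in MI+RDN and 2.52 ± 0.47 in MI. Of the 5 PDGF genes listed, 2 could be tested and 0 passed. Pdgfa, Pdgfd and Pdgfra, named after their values were seen, had at most 12 counts in any library.

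Osm (ENSMUSG00000058755, chromosome 11) differed more within the groups than between them. It stood at 126, 208 and 79.0 CPM in MI+RDN and 126, 144 and 65.4 CPM in MI. In both groups replicate 2 was the highest library and replicate 3 the lowest. The log2 fold change of 0.30 (SE 0.38, 95% interval -0.58 to 1.18) missed the threshold (edgeR, Benjamini-Hochberg adjusted p = 0.697) and was -0.15 without MI+RDN replicate 2. Leaving out MI replicate 3 gave 0.026, leaving out MI replicate 2 gave 0.52, and leaving out MI+RDN replicate 3 gave 0.57. MI+RDN replicate 2 had the highest neutrophil marker sum. The neutrophil markers Csf3r (4362 CPM) and Cxcr2 (1241 CPM), named after their values were seen, were lowest there among the MI+RDN libraries. The part of neutrophils in the Osm values was not tested.

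Il6st, which encodes gp130, the receptor chain through which oncostatin M signals, passed the test and fell in MI+RDN. It stood at 102, 114 and 108 CPM in MI+RDN and 172, 160 and 173 CPM in MI, with a wide gap between the groups. Its log2 fold change was -0.65 (SE 0.086, edgeR Benjamini-Hochberg adjusted p = 0.0316). With 1 library left out the adjusted p ran from 0.0470 to 0.131 by edgeR, and the fold change from -0.70 to -0.60, with the call kept only without MI+RDN replicate 2. It was also lost with no filter on low counts (adjusted p = 0.0682). The part of the dendritic, B, T, erythroid, endothelial and neutrophil marker sums given above in the Il6st result was not tested. Of the 7 genes tested in the list of IL-6 family ligands, receptors and the SOCS3-STAT3 arm, Il6st was the 1 lower and 0 were higher, with a median log2 fold change of 0.23 (0.096 with no scaling factors, and 0.084 to 0.28 with 1 library left out). Osmr, the chain that makes gp130 a receptor for oncostatin M in mice, had 0 counts in all 6 libraries, where 3 counts correspond to 0.1096 to 0.135 CPM. Osmr was named after its values were seen.

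Fn1 (ENSMUSG00000026193, chromosome 1), which encodes fibronectin, stood at 1775, 1569 and 1371 CPM in MI+RDN and 2309, 1571 and 1952 CPM in MI. MI replicate 2 lay between the MI+RDN libraries and the other MI libraries lay above all of them. For Fn1 a log2 fold change of -0.31 (SE 0.18, 95% interval -0.71 to 0.10) missed the threshold (edgeR, Benjamini-Hochberg adjusted p = 0.373), and it was -0.16 without MI replicate 1. Thbs1 (ENSMUSG00000040152, chromosome 2), an inhibitor of vessel growth that also activates TGF-beta, stood at 52.0, 105 and 61.1 CPM in MI+RDN and 102, 87.4 and 81.3 CPM in MI. MI+RDN replicate 2 was the highest of all libraries and the other MI+RDN libraries were below every MI library. Over all 6 libraries the log2 fold change was -0.31 (SE 0.24, edgeR Benjamini-Hochberg adjusted p = 0.516) and -0.69 without MI+RDN replicate 2 (adjusted p = 0.0710 by edgeR). Without MI+RDN replicate 1 it was -0.11.

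Spp1 (ENSMUSG00000029304, chromosome 5), which encodes osteopontin, stood at 9.39, 11.3 and 18.4 CPM in MI+RDN and 6.09, 11.5 and 11.7 CPM in MI. MI+RDN replicate 3 was set apart at the top and MI replicate 1 at the bottom, and the other 4 libraries lay close together. The log2 fold change of 0.41 (SE 0.32, 95% interval -0.33 to 1.15) missed the threshold (edgeR, Benjamini-Hochberg adjusted p = 0.508), and leaving out MI+RDN replicate 3 gave 0.064, while leaving out MI replicate 1 gave 0.17. Gm42793, an annotated gene that overlaps Spp1 on the same strand, had 1 to 9 counts per library. The sources used here do not say how reads in the overlap were counted.

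Integrins, CD44, CD36, CD47 and syndecans, the receptors for these matrix proteins, showed 0 of 15 tested genes past the threshold, 4 positive and 11 negative, with a median of -0.25 on the log2 scale (2 positive and -0.39 with no scaling factors). Itga8, an integrin chain that binds fibronectin and osteopontin, stood at 3.58, 2.16 and 2.36 CPM in MI+RDN and 6.22, 7.31 and 6.39 CPM in MI. Its groups did not overlap, and its log2 fold change of -1.30 (SE 0.24) was just short of the threshold (edgeR Benjamini-Hochberg adjusted p = 0.0539). Itgav, given above among the activators of TGF-beta, also binds all 3 matrix proteins. With no scaling factors Itga8 and Itgav both passed (edgeR, Benjamini-Hochberg adjusted p = 0.0289 and 0.0291).

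**Figure D4:**
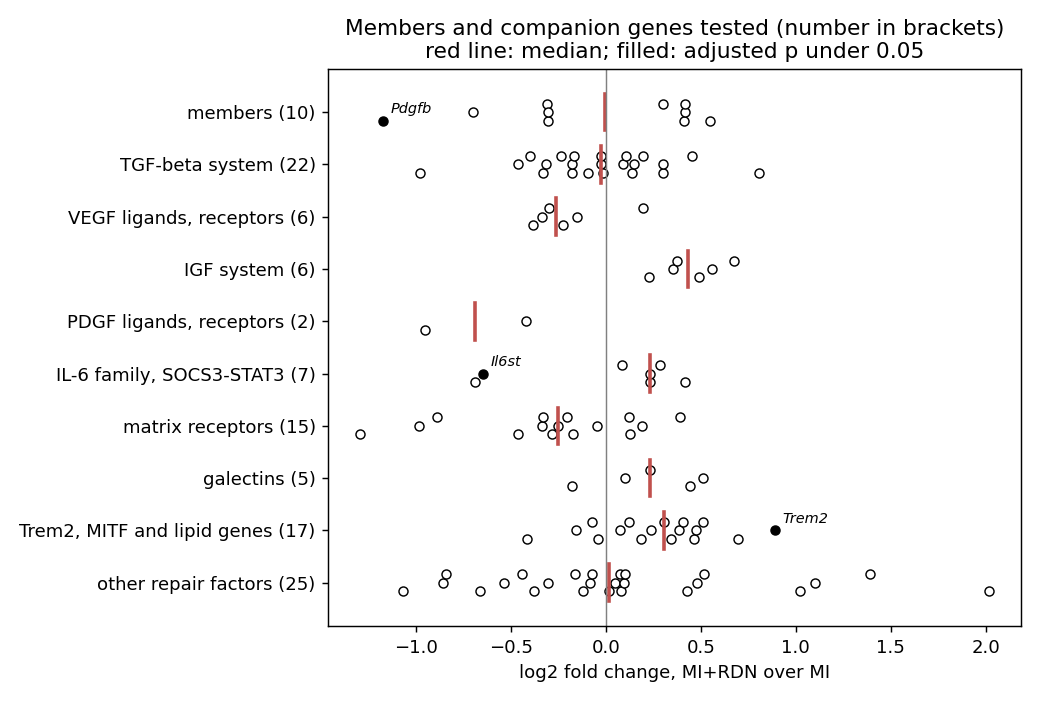
Log2 fold change, MI+RDN over MI, of the 10 factors and of the tested genes of 9 related lists, 1 point per gene, with the median as a red line and filled points for an adjusted p under 0.05. Pdgfb (-1.17) and Il6st (-0.65) were lower and Trem2 (0.89) higher, and no other gene shown is filled.

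Lgals3 (ENSMUSG00000050335, chromosome 14) stood at 502, 564 and 503 CPM in MI+RDN and 385, 392 and 399 CPM in MI. All MI+RDN libraries were above all MI libraries, and the MI libraries were nearly equal. The log2 fold change was 0.42 (SE 0.096, 95% interval 0.20 to 0.64), a 1.34-fold difference that did not pass over all genes with edgeR (Benjamini-Hochberg adjusted p = 0.0761). Of 14 alternatives Lgals3 passed in 1, the DESeq2 Wald test (adjusted p = 0.00118), which called 1121 of 14849 genes. With no scaling factors its log2 fold change was 0.28 (edgeR, Benjamini-Hochberg adjusted p = 0.155). With 1 library left out it ran from 0.34 to 0.45 (adjusted p = 0.115 to 0.220 by edgeR). The neutrophil markers given above also stood higher in MI+RDN, with 2 of 12 past the threshold, none lower and none at 0; their part in the Lgals3 values was not tested. Among the other galectins and the galectin-3 binding protein, 0 of 5 tested passed, with a median log2 fold change of 0.23 (0.093 with no scaling factors and 0.099 without MI+RDN replicate 2). Lgals9 stood at 157 ± 25.6 CPM in MI+RDN and 116 ± 20.3 in MI, and Lgals4, known from gut epithelium, at 9.20 ± 2.20 CPM in MI+RDN and 6.45 ± 0.81 in MI.

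Gpnmb (ENSMUSG00000029816, chromosome 6) stood at 6.24, 7.34 and 4.04 CPM in MI+RDN and 4.22, 2.75 and 5.04 CPM in MI. The groups overlapped, with MI+RDN replicate 3 below 2 of the MI libraries. Its log2 fold change of 0.55 (SE 0.30, 95% interval -0.15 to 1.25) missed the threshold (edgeR, Benjamini-Hochberg adjusted p = 0.355), and leaving out replicate 2 of either group gave 0.34. A list was made of genes of lipid-laden macrophages and of the MITF family, which is known to switch on Gpnmb. In it 13 of 17 genes were positive, beside 7568 of all 14849 genes tested. The median of the list was 0.30 on the log2 scale (11 of 17 positive and 0.17 with no scaling factors). Trem2, the lipid-sensing receptor whose signal the lipid-laden macrophage state is known to need, was the 1 gene of the list past the threshold. It stood at 20.8, 27.4 and 22.05 CPM in MI+RDN and 12.7, 12.3 and 12.8 CPM in MI, with a clear gap between the groups. Its log2 fold change was 0.89 (SE 0.13, edgeR Benjamini-Hochberg adjusted p = 0.0401), and with 1 library left out it ran from 0.75 to 0.98 with an adjusted p of 0.0584 to 0.136 by edgeR, so the call was lost each time, as it was with no filter on low counts (adjusted p = 0.0793). Apoe, named after its values were seen, was the lowest of the 4 negative genes of the list, and its groups did not overlap. It stood at 952 ± 47.5 CPM in MI+RDN and 1270 ± 73.7 in MI (log2 fold change -0.42, edgeR Benjamini-Hochberg adjusted p = 0.103). Apoe passed with no scaling factors and with the DESeq2 Wald test. Neutrophil markers, given above, stood higher in MI+RDN, while 11 of 13 macrophage markers were negative. The part of these cells in the Trem2 result was not tested.

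Of the 10 factors, 6 spanned at least 1 log2 unit over the 6 libraries, and for each the 2 genes with the closest profile were sought among 8176 genes with a mean of at least 10 CPM. Likeness was the root mean square difference of log2 CPM after each gene's own mean was taken away. All genes were read in the same 6 libraries, which differ in group, depth and cell marker sums. Many genes share a profile, so these are descriptions with no test. The closest genes were chosen on these same values, so their agreement with a factor library by library is built into the choice. Pdgfb lay closest to Zbtb46, which encodes a zinc finger factor of dendritic cells, and H2-Eb1, an MHC class II chain, both among the dendritic cell markers summed above, at 0.071 and 0.072 log2 units. Zbtb46 stood at 9.16, 10.8 and 10.01 CPM in MI+RDN and 17.9, 21.5 and 27.1 CPM in MI, the same order of MI libraries as for Pdgfb. H2-Eb1 stood at 445, 513 and 526 CPM in MI+RDN and 875, 1071 and 1338 CPM in MI.

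Igf1 lay closest to C1qa and C1qb, complement chains that macrophages make and that belong to the macrophage markers summed above, at 0.16 and 0.17 log2 units. C1qa stood at 21.98, 34.2 and 63.6 CPM in MI+RDN and 49.1, 62.9 and 70.4 CPM in MI, again lowest in MI+RDN replicate 1. Gpnmb lay closest to the phosphatase gene Ctdspl and to Tfec, a member of the MITF family, at 0.17 and 0.19 log2 units. Tfec stood at 12.5, 20.3 and 9.89 CPM in MI+RDN and 10.7, 8.16 and 11.1 CPM in MI. Both Gpnmb and Tfec were highest in MI+RDN replicate 2 and lowest in MI replicate 2, a likeness by which Tfec was chosen. Osm lay closest to Ckap2l, a gene of the mitotic spindle, and Hcar2, a receptor for niacin and ketone bodies, at 0.16 and 0.17. Thbs1 lay closest to the ubiquitin ligase gene Nedd4 and to Specc1, at 0.098 and 0.12. Spp1 lay closest to Ly6a, which encodes Sca-1, and Tomm7, a part of the mitochondrial import pore, at 0.22 and 0.23.

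**Figure D5:**
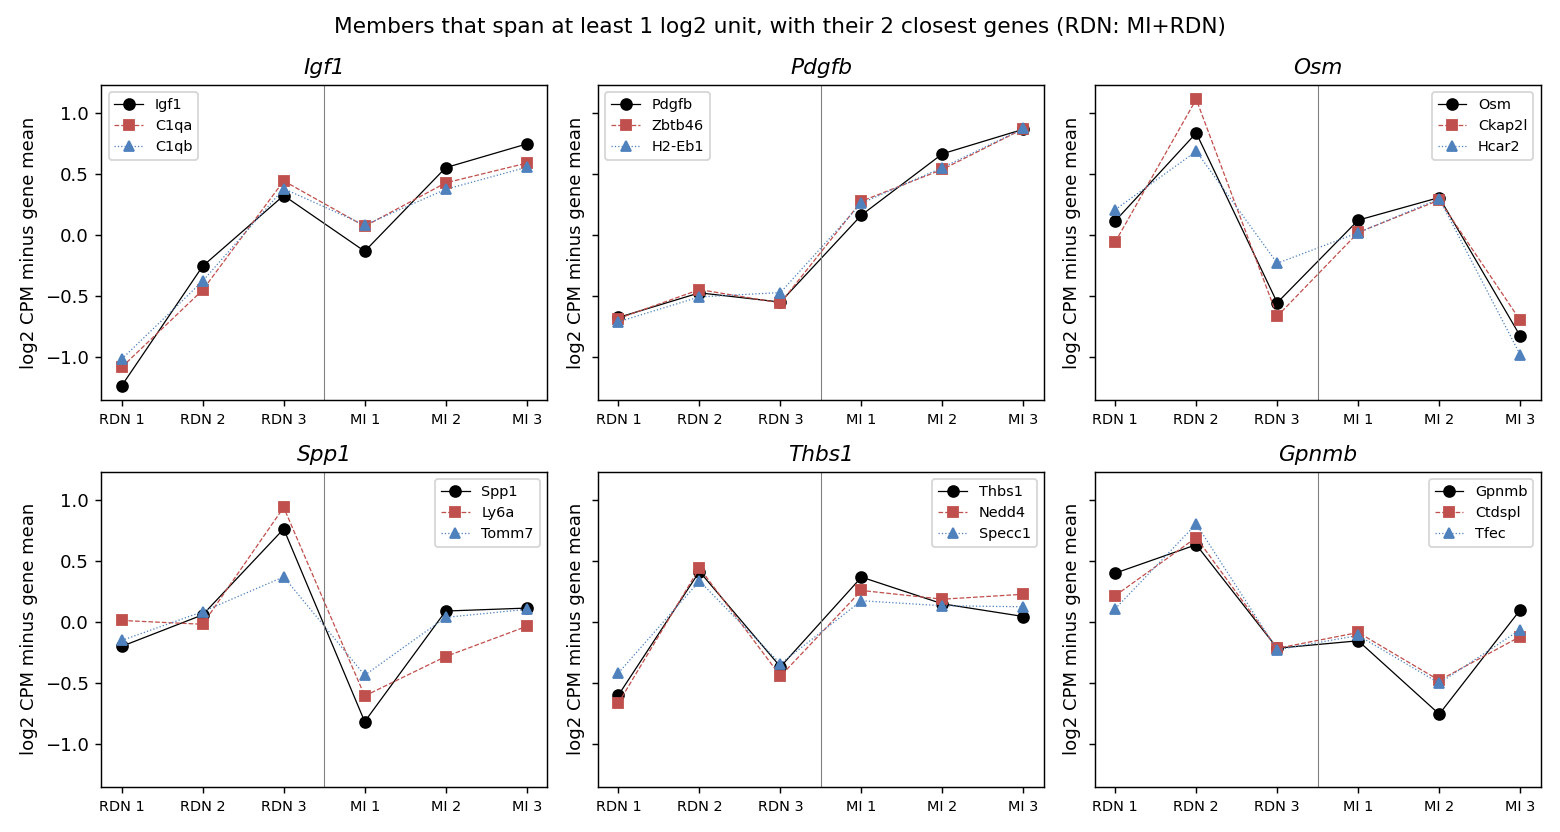
Log2 CPM minus each gene's mean in the 6 libraries, MI+RDN left of MI, for the 6 factors that spanned at least 1 log2 unit (black circles) and their 2 closest genes (red squares, blue triangles). Pdgfb and its neighbours are low in all MI+RDN libraries, whereas Osm and Thbs1 peak in MI+RDN replicate 2 and Igf1 is lowest in MI+RDN replicate 1; thin lines only guide the eye.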

How the data were processed

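RNA of CD11b+ spleen cells was read in 6 libraries from strand-specific TruSeq preparations on a NovaSeq instrument, per the labels' protocols. The authors deposited whole-number counts per Ensembl gene with no normalisation. FastQC 0.11.2, STAR and build GRCm39 are named in the submitters' processing notes; the sources used here do not name the counting tool, its strand setting or its handling of shared reads. Symbols were matched by Ensembl ID for 55154 of 55335 genes, and exon lengths and overlaps came from GENCODE M21 (GRCm38); 31020 had 0 counts throughout. No gene coordinates are given, since the builds differ; RefSeq windows carry their own build.

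Counts were fitted in R 4.3.3 with edgeR 4.0.16 (filterByExpr defaults, TMM, quasi-likelihood F test, all 6 libraries, no covariate), with Benjamini-Hochberg adjustment at 0.05 over 14849 genes. Fold changes are MI+RDN over MI, and the SE was obtained by dividing the size of the fold change by the root of F. Log2 CPM used a prior count of 2. The biological coefficient of variation was 20.7%. The procedure was tested on simulated data. Alternatives were other scalings, filters and tests (DESeq2 1.42.0, limma-voom 3.58.1), a replicate block and each library left out. Figures used Python 3.11.15 and matplotlib 3.10.9.

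The 10 factors and all lists were chosen with earlier results of these data known. Named beside them are, from each list, up to 4 passing genes or else the 2 with the lowest p, and the 2 closest profiles of each factor spanning 1 log2 unit; exceptions are marked. Beside Fn1 and Spp1, few counts fell on the overlapping genes Apol7d and Gm42793, at most 9 in any library.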

Additional observations from a re-analysis of the deposited data

How the results depend on the processing

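The number of genes past the threshold was 150 and became 475 with no scaling factors, 21 with no filter, 290 among genes averaging at least 5 CPM, 1121 with the DESeq2 Wald test and 87 with the replicate block, and 0 to 67 with 1 library left out. At 0 calls by edgeR, without MI+RDN replicate 1 or MI replicate 3, 2323 and 2084 genes had an unadjusted p under 0.05. With no scaling factors 62 genes were higher and 413 lower, against 44 and 106 with TMM, and the median of all genes was -0.13 on the log2 scale. With the DESeq2 Wald test 538 were higher and 583 lower. The number of the 10 factors past the threshold was 1 and became 0 with DESeq2 size factors, no filter, limma-voom or the replicate block (Pdgfb, adjusted p = 0.0505, 0.0910, 0.0566 and 0.0632), and 0 (0 to 0) with any 1 library left out; with the DESeq2 Wald test it was 2, Pdgfb and Lgals3. The number of related genes past the threshold was 2 of 104 tested and became 6 with no scaling factors, 0 with no filter, 4 among genes averaging at least 5 CPM, 13 with the DESeq2 Wald test, 0 with the replicate block and 0 to 1 with 1 library left out. The cause of these differences was not tested. Of 139 recomputed fold changes of the factors, 1 changed sign, Osm at -0.15 without MI+RDN replicate 2, and its range with 1 library left out was -0.15 to 0.57. Of 375 of the other named genes, 1 changed sign, Ckap2l at -0.27 without MI+RDN replicate 2, and its range with each library left out was -0.27 to 0.72. Same-numbered replicates did not deviate together (correlations 0.018, -0.065 and 0.064 across genes), so the numbers were not taken as pairs. Gpnmb has no value under the filter at 5 CPM, which it did not reach. Gpnmb, Igf1, Pdgfb and Spp1 had 61 to 428 counts per library, the fewest of the 10 factors.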

Other observations

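Other secreted factors of repair formed a list of 38 genes, of which 25 could be tested and 0 passed edgeR's test after Benjamini-Hochberg adjustment over all genes. Their median log2 fold change, MI+RDN over MI, was 0.017 (-0.11 with no scaling factors and -0.24 without MI+RDN replicate 2), with 13 positive and 12 negative. Anxa1, which encodes the pro-resolving protein annexin A1, stood at 1374, 1948 and 1029 CPM in MI+RDN and 819, 755 and 569 CPM in MI. All MI+RDN libraries were above all MI libraries, MI+RDN replicate 2 by the most (log2 fold change 1.02, edgeR Benjamini-Hochberg adjusted p = 0.0810). Neutrophils are known to carry much annexin A1, and their 12 markers summed to between 28441 and 52034 CPM in MI+RDN and between 15704 and 24631 CPM in MI; their part in the Anxa1 values was not tested. Plaur, the receptor that holds urokinase at the cell surface, stood at 260.5 ± 19.4 CPM in MI+RDN and 187 ± 26.0 in MI (SD, n = 3 each; log2 fold change 0.48, edgeR Benjamini-Hochberg adjusted p = 0.0961).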
